A study of Mus musculus with 5 samples.

Results

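The 9 Pax genes of the mouse, *Pax1* to *Pax9*, were examined for binding of CBX2 in mouse embryonic fibroblasts (MEFs). They were chosen by name and not by a measured value, but with earlier results of these data known. For each of the 9 genes, of 22367 protein-coding genes annotated on mm9, all CBX2 peaks that overlapped the gene body extended by 5 kb on each side were taken from the peak lists of 3 libraries. The MEFs came from an E13.5 embryo whose *Eed* gene carried loxP sites, and all 3 libraries share this floxed background. Control cells were the parental floxed line, EZHIP cells stably expressed human EZHIP from a lentivirus, and K27M cells stably expressed histone H3.3 K27M (labelled H3.3K27M) from a lentivirus. The transgenes were driven by the EF1a promoter and not by their own control elements, and the labels do not say whether Control cells carried an empty vector. Of the 5 CBX2 libraries that the labels describe, those of H3.3 K27R cells and of the *Eed* deletion line, a single clone, were not analysed here. With 1 library behind each, the Control list held 289 broad peaks, that of EZHIP 255 and that of K27M 327. The lists hold positions in steps of 200 bp and no peak height, the read depth is unknown, and a difference between lists therefore has no replicate check and no test. A gene without a peak is a gene at which none was called. Peak lists hold no expression values, so the fibroblast label was not checked against marker genes.

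Pax proteins are transcription factors that bind DNA through a paired domain and direct the formation of organs and cell lineages in the embryo. By sequence they form 4 subgroups, *Pax2*, *Pax5* and *Pax8*; *Pax3* and *Pax7*; *Pax4* and *Pax6*; and *Pax1* and *Pax9*. Polycomb Repressive Complex 2 (PRC2) places the H3K27me3 mark, and CBX2, a chromodomain subunit of Polycomb Repressive Complex 1 (PRC1), can bind that mark. Polycomb complexes commonly occupy CpG islands at developmental regulators in cells where those genes are silent. EZHIP and H3.3 K27M both inhibit PRC2, and the question put to the CBX2 libraries was whether the distribution of PRC1 changed when PRC2 was inhibited.

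Since CpG-rich DNA is where Polycomb complexes commonly gather, the 300 bases upstream of the annotated 5′ end are shown for 6 of the genes, each 5′ to 3′ on the strand of the gene, with every CG in capitals. They were read from the mm9 assembly and stand for the patterns described next. The *Pax6* sequence lies inside a peak of every list, that of *Pax3* inside the K27M peak alone, and that of *Pax7* inside the K27M peak, with 155 of its bases inside the EZHIP peak. Those of *Pax9*, *Pax8* and *Pax4* lie in no peak.
Pax6 (chr2:105508753-105509052, plus strand): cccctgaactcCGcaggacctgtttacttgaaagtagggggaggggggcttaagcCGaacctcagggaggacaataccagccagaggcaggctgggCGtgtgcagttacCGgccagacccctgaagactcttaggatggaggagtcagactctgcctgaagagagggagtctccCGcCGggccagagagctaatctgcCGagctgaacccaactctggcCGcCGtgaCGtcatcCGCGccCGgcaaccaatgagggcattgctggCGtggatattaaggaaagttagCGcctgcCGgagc
Pax3 (chr1:78193710-78194009, minus strand): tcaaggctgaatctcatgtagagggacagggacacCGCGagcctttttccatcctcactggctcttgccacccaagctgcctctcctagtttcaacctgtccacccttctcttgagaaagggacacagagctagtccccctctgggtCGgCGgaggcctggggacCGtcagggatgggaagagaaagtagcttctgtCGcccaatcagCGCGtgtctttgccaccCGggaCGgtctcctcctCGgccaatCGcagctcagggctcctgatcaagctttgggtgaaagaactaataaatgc
Pax7 (chr4:139389446-139389745, minus strand): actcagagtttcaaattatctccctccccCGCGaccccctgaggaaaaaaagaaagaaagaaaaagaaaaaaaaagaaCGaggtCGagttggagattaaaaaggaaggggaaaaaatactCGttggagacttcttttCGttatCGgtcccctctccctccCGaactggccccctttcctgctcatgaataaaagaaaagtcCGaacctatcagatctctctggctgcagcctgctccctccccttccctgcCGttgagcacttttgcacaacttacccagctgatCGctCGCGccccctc
Pax9 (chr12:57792454-57792753, plus strand): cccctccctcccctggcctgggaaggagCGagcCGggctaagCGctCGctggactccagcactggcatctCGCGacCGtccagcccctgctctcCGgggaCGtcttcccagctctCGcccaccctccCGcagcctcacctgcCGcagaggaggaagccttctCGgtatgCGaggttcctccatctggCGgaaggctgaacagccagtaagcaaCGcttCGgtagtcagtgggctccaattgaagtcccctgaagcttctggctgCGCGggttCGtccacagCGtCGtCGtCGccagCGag
Pax8 (chr2:24331120-24331419, minus strand): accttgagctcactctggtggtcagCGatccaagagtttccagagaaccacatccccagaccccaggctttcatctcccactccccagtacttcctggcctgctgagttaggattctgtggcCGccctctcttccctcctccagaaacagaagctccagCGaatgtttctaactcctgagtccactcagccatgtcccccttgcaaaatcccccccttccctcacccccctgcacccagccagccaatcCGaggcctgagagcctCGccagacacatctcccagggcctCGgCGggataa
Pax4 (chr6:28399354-28399653, minus strand): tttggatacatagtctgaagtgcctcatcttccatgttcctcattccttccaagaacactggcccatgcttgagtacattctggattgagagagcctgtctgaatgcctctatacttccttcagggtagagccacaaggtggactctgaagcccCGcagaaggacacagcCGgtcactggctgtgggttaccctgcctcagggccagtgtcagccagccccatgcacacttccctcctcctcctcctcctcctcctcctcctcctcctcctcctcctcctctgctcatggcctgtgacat
The number of CG dinucleotides in this window was 25 at *Pax9*, 16 at *Pax6*, 13 at *Pax7*, 12 at *Pax3*, 7 at *Pax8* and 2 at *Pax4*. The median over 22361 protein-coding genes was 9, and 93.9% of them had at least 1. The window richest in CG, that of *Pax9*, was therefore outside every peak. However, the K27M peak ended 354 bp before the 5′ end of *Pax9*, less than 1 bin of 200 bp from this window. The 2 poorest windows were at genes with no peak at all. *Pax2*, *Pax1* and *Pax5*, whose sequences are not shown, had 18, 16 and 11. *Pax1*, which also had no peak in any list, thus had as many as *Pax6*, and 65.3% of protein-coding genes had fewer. Placed among all protein-coding genes, 83.4% had fewer CG than *Pax9* and 14.2% fewer than *Pax4*, and the genes with peaks in every list ranged from 53.0% (*Pax5*) to 70.0% (*Pax2*).

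CBX2 peaks lay at 5 of the 9 Pax genes in Control (*Pax2*, *Pax3*, *Pax5*, *Pax6* and *Pax7*), at 4 in EZHIP (the same without *Pax3*) and at 6 in K27M (the Control genes and *Pax9*). *Pax1*, *Pax4* and *Pax8* had no peak in any list. Among all protein-coding genes, a peak within the same distance was found for 1.49% with the Control list, 1.44% with the EZHIP list and 1.78% with the K27M list. The extended gene body favours long genes, and the Pax genes range from 7.02 kb (*Pax4*) to 180 kb (*Pax5*). The 5′ end alone does not depend on gene length. It lay inside a peak at 3 Pax genes in Control (*Pax2*, *Pax5* and *Pax6*), at 4 in EZHIP (these and *Pax7*) and at 5 in K27M (these, *Pax7* and *Pax3*), against 0.903%, 0.894% and 1.19% of all protein-coding genes. A CpG island window, meaning 500 bp in which G and C make up 55% or more and CpG reaches 0.65 of the number its bases would give by chance, was found within 1000 bp of the 5′ end at 6 Pax genes, *Pax2*, *Pax3*, *Pax5*, *Pax6*, *Pax7* and *Pax9*. All Pax 5′ ends inside peaks belonged to these genes. Of the 11910 protein-coding genes with such a window, 1.40% had the 5′ end inside a Control peak, 1.39% inside an EZHIP peak and 1.85% inside a K27M peak.

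**Figure D1:**
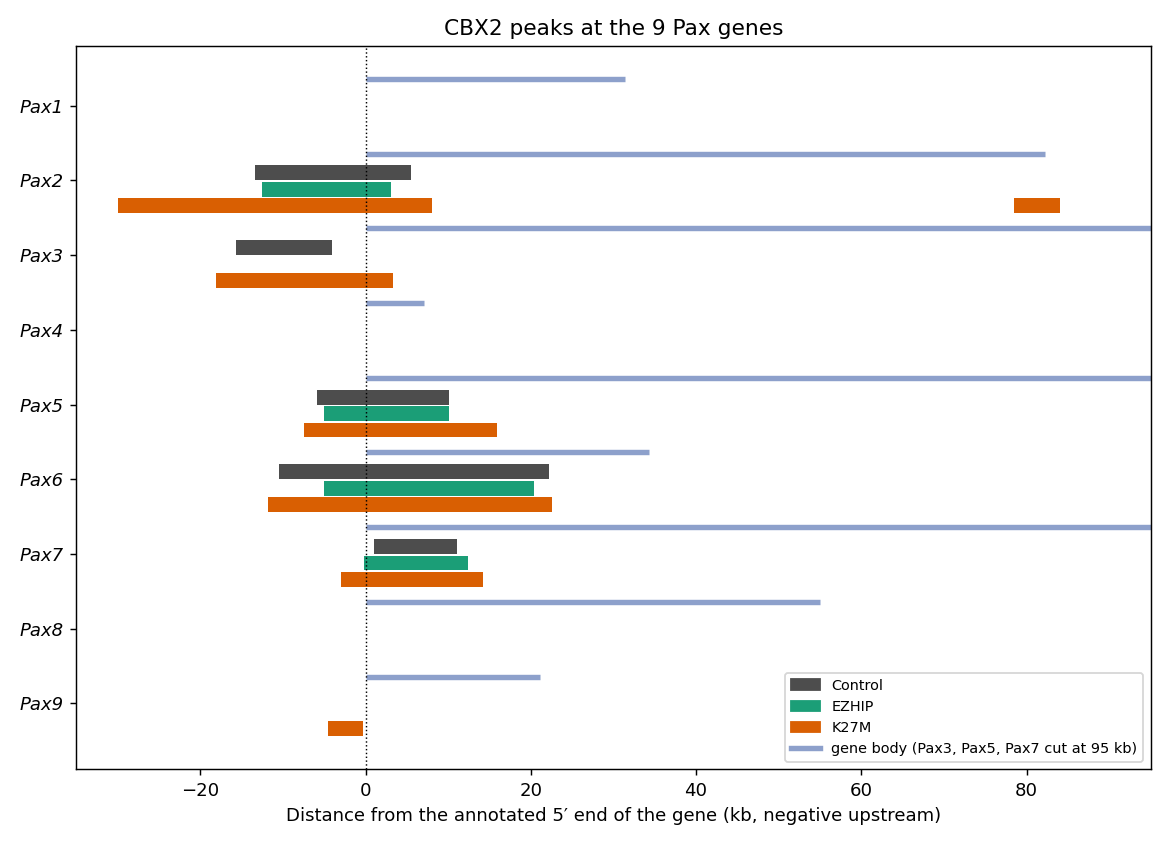
Position of the CBX2 peaks at each Pax gene in kb from the annotated 5′ end (negative is upstream in the direction of transcription). Bars are called peaks of the Control, EZHIP and K27M lists, 1 library each, and blue lines are gene bodies, of which the longest are drawn to 95 kb. *Pax2*, *Pax5*, *Pax6* and *Pax7* have a peak in every list, *Pax3* in Control and K27M, *Pax9* in K27M, and *Pax1*, *Pax4* and *Pax8* have none.

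*Pax2* directs development of the kidney, the optic stalk and the midbrain-hindbrain boundary (ENSMUSG00000004231, chromosome 19, 44830539 to 44912758, plus strand). Control had a peak of 18.8 kb (44817201 to 44836000), EZHIP of 15.6 kb (44818001 to 44833600) and K27M of 38.0 kb (44800601 to 44838600). All contained the 5′ end and lay mostly upstream of it, where the Control peak reached 13.3 kb, the EZHIP peak 12.5 kb and the K27M peak 29.9 kb. On the 3′ side the peak ended in intron 2 in Control, intron 1 in EZHIP and intron 3 in K27M. Of the 7 annotated transcript starts of the gene, 7 lay inside the Control and K27M peaks and 6 inside the EZHIP peak. K27M had a second peak of 5.6 kb at the other end of the gene (44909001 to 44914600), from intron 8 past the annotated 3′ end, which contained the start of the noncoding transcript 1700039E22Rik. It was the only peak of any list at a Pax gene that lay at the 3′ end.

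*Pax5*, which maintains the identity of B lymphocytes, had the same 3′ peak edge in Control and EZHIP (ENSMUSG00000014030, chromosome 4, 44544017 to 44724318, minus strand). Its width was 16.0 kb for Control (44714201 to 44730200), 15.2 kb for EZHIP (44714201 to 44729400) and 23.4 kb for K27M (44708401 to 44731800). The 3′ edges of the Control and EZHIP peaks fell in the same 200 bp bin, in intron 1, 10.1 kb past the 5′ end, and the 5′ edges differed by 0.8 kb. The K27M peak reached 15.9 kb past the 5′ end, into intron 2. Each peak held 15 of 16 transcript starts but covered only a small part of this long gene, 5.61% in Control and EZHIP and 8.83% in K27M. *Pax8*, the third gene of the subgroup and a regulator of thyroid and kidney development, had no peak in any list (ENSMUSG00000026976, chromosome 2, 24276071 to 24331119, minus strand). Its nearest peak was 1.79 Mb away in Control and EZHIP and 1.72 Mb away in K27M.

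*Pax3* and *Pax7*, which specify dorsal neural tube, neural crest and skeletal muscle progenitors, were the genes at which the lists differed in whether the 5′ end was covered. At *Pax3* (ENSMUSG00000004872, chromosome 1, 78097842 to 78193709, minus strand) the Control peak of 11.6 kb (78197801 to 78209400) lay wholly upstream, from 15.7 kb to 4092 bp before the 5′ end. EZHIP had no peak here, and its nearest on the chromosome was 6.88 Mb away. A Control peak without an EZHIP counterpart was common in the whole list, where 192 of 289 Control peaks overlapped an EZHIP peak. The K27M peak of 21.4 kb (78190401 to 78211800) ran from 18.1 kb upstream to 3.31 kb inside the gene, ended in exon 3 and held all 3 transcript starts. The Control peak thus counts for *Pax3* only through the 5 kb extension, which it entered by less than 1000 bp.

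At *Pax7* (ENSMUSG00000028736, chromosome 4, 139292977 to 139389445, minus strand) the Control peak of 10.0 kb (139378401 to 139388400) lay wholly inside the gene, from 1045 bp past the 5′ end in intron 1 to intron 4. The EZHIP peak of 12.6 kb (139377001 to 139389600) covered the 5′ end by 155 bp, less than 1 bin of 200 bp. The K27M peak of 17.2 kb (139375201 to 139392400) began 2.96 kb upstream. On the 3′ side all 3 peaks ended in intron 4. The order of the widths was therefore Control, EZHIP, K27M, and *Pax7* was the only Pax gene at which the EZHIP peak was wider than that of Control.

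*Pax6*, a regulator of eye, forebrain and pancreatic islet development, had the widest Pax peak in Control and EZHIP (ENSMUSG00000027168, chromosome 2, 105509053 to 105543317, plus strand). The Control peak spanned 32.6 kb (105498601 to 105531200), the EZHIP peak 25.4 kb (105504001 to 105529400) and the K27M peak 34.4 kb (105497201 to 105531600). They covered 64.6%, 59.4% and 65.8% of the gene body in this order, more than at any other Pax gene, and ended in intron 7 in every list. It held 32 of 33 annotated transcript starts in Control and K27M and 31 in EZHIP, and in each list also the start of the antisense transcript *Pax6os1*. *Pax4*, the islet regulator of the same subgroup (ENSMUSG00000029706, chromosome 6, 28392334 to 28399353, minus strand), had no peak in any list, and the nearest were 1.73 Mb (Control), 20.8 Mb (EZHIP) and 5.18 Mb (K27M) away.

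*Pax1* and *Pax9* act in the sclerotome, from which vertebrae form, and in the pharyngeal pouches. *Pax9* had a single peak, of 4.2 kb, in K27M (chromosome 12, 57788201 to 57792400). It ended 354 bp before the 5′ end of *Pax9* (ENSMUSG00000001497, 57792754 to 57813809, plus strand) and contained the start of the noncoding transcript Gm15524. It was the narrowest of the 16 peaks at Pax genes. The nearest Control and EZHIP peaks were 154 and 159 kb away, on the far side of the protein-coding gene *Nkx2-9*. *Pax1* (ENSMUSG00000037034, chromosome 2, 147187661 to 147219031, plus strand) had no peak. Its nearest were 271 kb (Control), 270 kb (EZHIP) and 170 kb (K27M) away. The Control and EZHIP peaks lay beyond *Nkx2-2*, the only protein-coding gene between them and *Pax1*. For the 5 kb rule, the *Pax3* peak of Control, at 4092 bp from the gene, was the closest to the limit from inside. Where a Pax gene had no peak in a list, the nearest peak outside was that of Control 154 kb from *Pax9*.

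**Figure D2:**
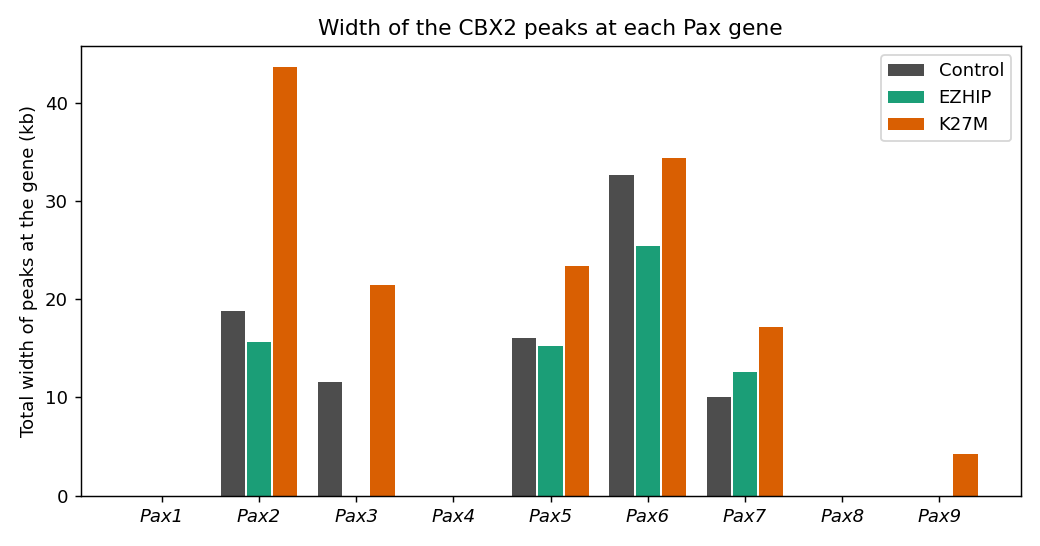
Total width in kb of the CBX2 peaks at each Pax gene in the Control, EZHIP and K27M lists, 1 library each, without error bars because there were no replicates. The K27M bar is the highest at every gene with a peak, and the EZHIP bar is lower than that of Control at *Pax2*, *Pax5* and *Pax6* and higher at *Pax7*.

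Peak edges were then compared with those of Control at the genes where both lists had a peak. In K27M all 5 Control peaks lay wholly inside a K27M peak, so that both edges had moved outward at every gene. Of the 229 Control peaks of the whole list that had a K27M counterpart, 72.9% lay wholly inside a single K27M peak. The outward shift on the 5′ side was 16.6 kb at *Pax2*, 4.0 kb at *Pax7*, 2.4 kb at *Pax3*, 1.6 kb at *Pax5* and 1.4 kb at *Pax6*. On the 3′ side it was 7.4 kb at *Pax3*, 5.8 kb at *Pax5*, 3.2 kb at *Pax7*, 2.6 kb at *Pax2* and 0.4 kb at *Pax6*. The larger shift was on the 5′ side at *Pax2*, *Pax6* and *Pax7* and on the 3′ side at *Pax3* and *Pax5*, and the *Pax6* peak, the widest of Control, changed least.

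Summed over all Pax genes, peaks spanned 89.0 kb in the Control list, 68.8 kb in that of EZHIP and 144.2 kb in that of K27M. With all peaks at a gene summed, the K27M to Control width ratio was 2.32 at *Pax2* (2.02 without the 3′ peak), 1.84 at *Pax3*, 1.72 at *Pax7*, 1.46 at *Pax5* and 1.06 at *Pax6*. The median log2 ratio was 0.78 over these 5 genes and 0.32 over all 229 matched Control peaks, of which 75.5% were wider in K27M. K27M peaks were thus wider at the Pax genes as in most of the list. Whether the read depth of the K27M library differed is unknown, and its part in these widths was not tested.

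In EZHIP the peaks of *Pax2*, *Pax5* and *Pax6* lay wholly inside those of Control, 3 of the 4 genes compared, and the *Pax7* peak enclosed that of Control. Of the 192 Control peaks of the list with an EZHIP counterpart, 47.4% held that counterpart entirely. The width ratio of EZHIP to Control was 0.779 at *Pax6*, 0.83 at *Pax2*, 0.95 at *Pax5* and 1.26 at *Pax7*, and the median log2 ratio was -0.17 over these genes, against -0.09 over the 192 matched peaks. At *Pax6* the narrowing came mostly from the 5′ side, where the edge lay 5.4 kb further in, against 1.8 kb on the 3′ side. At *Pax2* it came mostly from the 3′ side, by 2.4 kb against 0.8 kb.

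**Figure D3:**
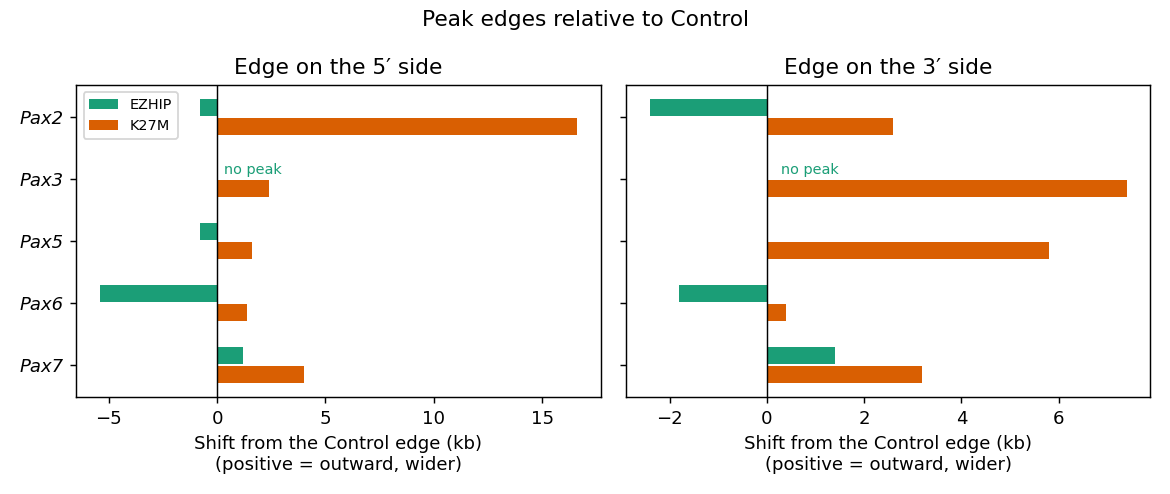
Shift of each peak edge from the Control edge in kb, on the 5′ side (left) and the 3′ side (right) of the gene's direction of transcription, for EZHIP and K27M, 1 library each. Positive values are outward. All K27M edges moved outward, from 0.4 to 16.6 kb, and EZHIP edges moved inward at *Pax2* and *Pax6* and outward at *Pax7*, with the 3′ edge of *Pax5* in the same bin as Control.

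The EZHIP and K27M lists were also compared with each other. All 4 EZHIP peaks at Pax genes lay wholly inside a K27M peak, as did 75.5% of the 192 EZHIP peaks with a K27M counterpart. The K27M peak overlapping that of EZHIP was 2.44 times as wide at *Pax2*, 1.54 times at *Pax5*, 1.37 times at *Pax7* and 1.35 times at *Pax6*. The median log2 ratio was 0.54, against 0.45 over the 192 peaks.

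As a measure of shared position, the bases common to a peak pair were divided by the bases held by either peak. Between EZHIP and Control this share was 0.95 at *Pax5*, 0.83 at *Pax2*, 0.794 at *Pax7* and 0.779 at *Pax6*. Between K27M and Control it was 0.948 at *Pax6*, 0.684 at *Pax5*, 0.581 at *Pax7*, 0.542 at *Pax3* and 0.495 at *Pax2*. *Pax2* thus had the least shared position in K27M but not in EZHIP.

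The stretch held by all 3 lists was 25.4 kb at *Pax6*, 15.6 kb at *Pax2*, 15.2 kb at *Pax5* and 10.0 kb at *Pax7*. This was 73.8%, 41.1%, 65.0% and 58.1% of the length held by any list at these peaks. It contained the 5′ end at *Pax2*, *Pax5* and *Pax6*, and at *Pax7* it lay from 1.04 to 11.0 kb past it.

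Most peaks at Pax genes were wider than the median of their list. A wide peak meets an extended gene body more readily than a narrow one, and the part of this in the ranks was not tested. In Control all 5 exceeded the median width of the list, 7.4 kb, with *Pax6* 16th by width of 289, *Pax2* 51st, *Pax5* 66th, *Pax3* 96th and *Pax7* 110th. In EZHIP all 4 exceeded the median of 6.8 kb, with *Pax6* 21st of 255, *Pax2* 44th, *Pax5* 49th and *Pax7* 63rd. In K27M 5 of 7 exceeded the median of 9.6 kb. The main *Pax2* peak was 18th of 327 and *Pax6* 23rd, and the peaks below the median were those at the 3′ end of *Pax2* (223rd) and upstream of *Pax9* (259th). The order of the genes by width was the same in Control and EZHIP over the genes they shared, while *Pax2* passed *Pax6* in K27M.

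**Figure D4:**
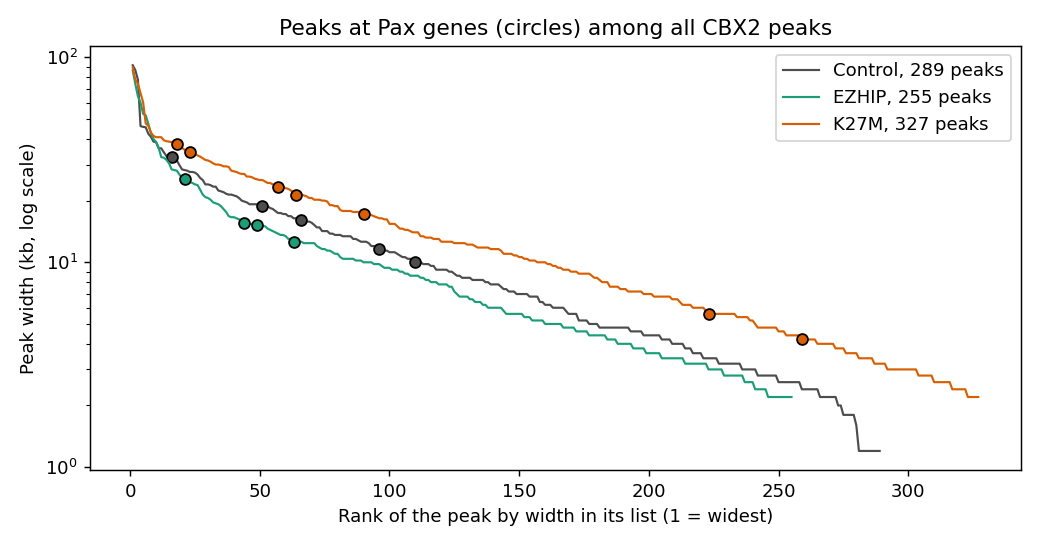
Width of every CBX2 peak (kb, log scale) against its rank in its list, with the 16 peaks at Pax genes as circles. The Control and EZHIP circles all lie in the wider part of their lists, and 2 of the 7 K27M circles, at the 3′ end of *Pax2* and upstream of *Pax9*, lie among the narrower peaks.

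The genes were chosen by name and not by the CpG content under their peaks, but 6 of the 9 had a CpG island window near the 5′ end. The medians given here are over all peaks of a list, whether at gene starts or not. CpG dinucleotides numbered 31.1 per kb in the Control peak of *Pax2*, 31.4 at *Pax5*, 29.0 at *Pax6*, 34.4 at *Pax7* and 18.4 at *Pax3*, against a median of 24.8 over all Control peaks. The Control peak upstream of *Pax3* was the only one of the 5 without a CpG island window. In EZHIP the peaks held 29.6 to 42.4 CpG per kb, against a median of 26.5, and all 4 had an island window. In K27M they held 21.2 to 35.3, against a median of 27.8, and the *Pax9* peak was the only one of 7 without an island window. In each of the 16 peaks, at most 4.76% of the 32-mers sampled occurred elsewhere in the genome as an exact copy. Repeats whose copies differ in sequence are not counted in this way.

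The DNA that K27M peaks added beyond the Control edges differed from gene to gene. It had 7.97 CpG per kb at *Pax5* and 7.22 at *Pax6*, fewer than the Control peak, and no CpG island window, so that these extensions were into DNA poor in CpG. Whether signal ran through all of the added DNA cannot be seen from the lists. At *Pax7* the added 7.2 kb had 36.7 CpG per kb, more than the Control peak, and 2.6 kb of it was CpG island, including the 5′ end. At *Pax3* the added 9.8 kb had 24.4 CpG per kb, of which 1.05 kb was the island at the 5′ end, while the Control peak had 0 kb of island. At *Pax2* the added 19.2 kb had 20.9 CpG per kb and 2.8 kb of island. In the 10 kb next to each outer edge of the K27M peak, CpG numbered 9.6 per kb at *Pax6*, 10.6 at *Pax5*, 12.7 at *Pax7*, 16.6 at *Pax2* and 23.3 at *Pax3*. The DNA outside was thus poorer in CpG than the added DNA at *Pax2*, *Pax3* and *Pax7* and richer at *Pax5* and *Pax6*. At *Pax3* the values, 24.4 added and 23.3 outside, were close. The added DNA was 7.4 kb at *Pax5* and only 1.8 kb at *Pax6*. Over the 189 matched Control peaks to which K27M added bases, the added bases had fewer CpG per kb than the Control peak in 66.7%, against 3 of these 5 genes. In this count over the list, bases of another Control peak under the same K27M peak were also taken as added.

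CpG islands at Pax genes also lay outside the peaks, at genes with no peak and at *Pax9*, which had a peak in K27M alone. Within 5 kb of the gene body, *Pax9* had 2.95 kb of CpG island windows in 3 separate stretches and *Pax1* had 2.45 kb in 2. The *Pax1* islands were in no peak, and 8.47% of the length at *Pax9* lay in the K27M peak. *Pax8* had a single stretch of 1.0 kb, in no peak, and *Pax4* had none. At the genes with peaks, Control peaks held 100% of the island length at *Pax6*, 79.0% at *Pax5*, 73.8% at *Pax2*, 56.3% at *Pax7* and 0% at *Pax3*. EZHIP peaks held 100%, 79.0%, 53.3%, 95.8% and 0% in the same order, and K27M peaks 100%, 79.0%, 100%, 100% and 52.5%. The CpG-richest 1 kb near the 5′ end, searched from 30 kb upstream to 25 kb downstream, was inside a peak of every list at *Pax2*, *Pax5* and *Pax6*, inside the EZHIP and K27M peaks at *Pax7*, and inside none at the other genes, *Pax3* and *Pax9* included.

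**Figure D5:**
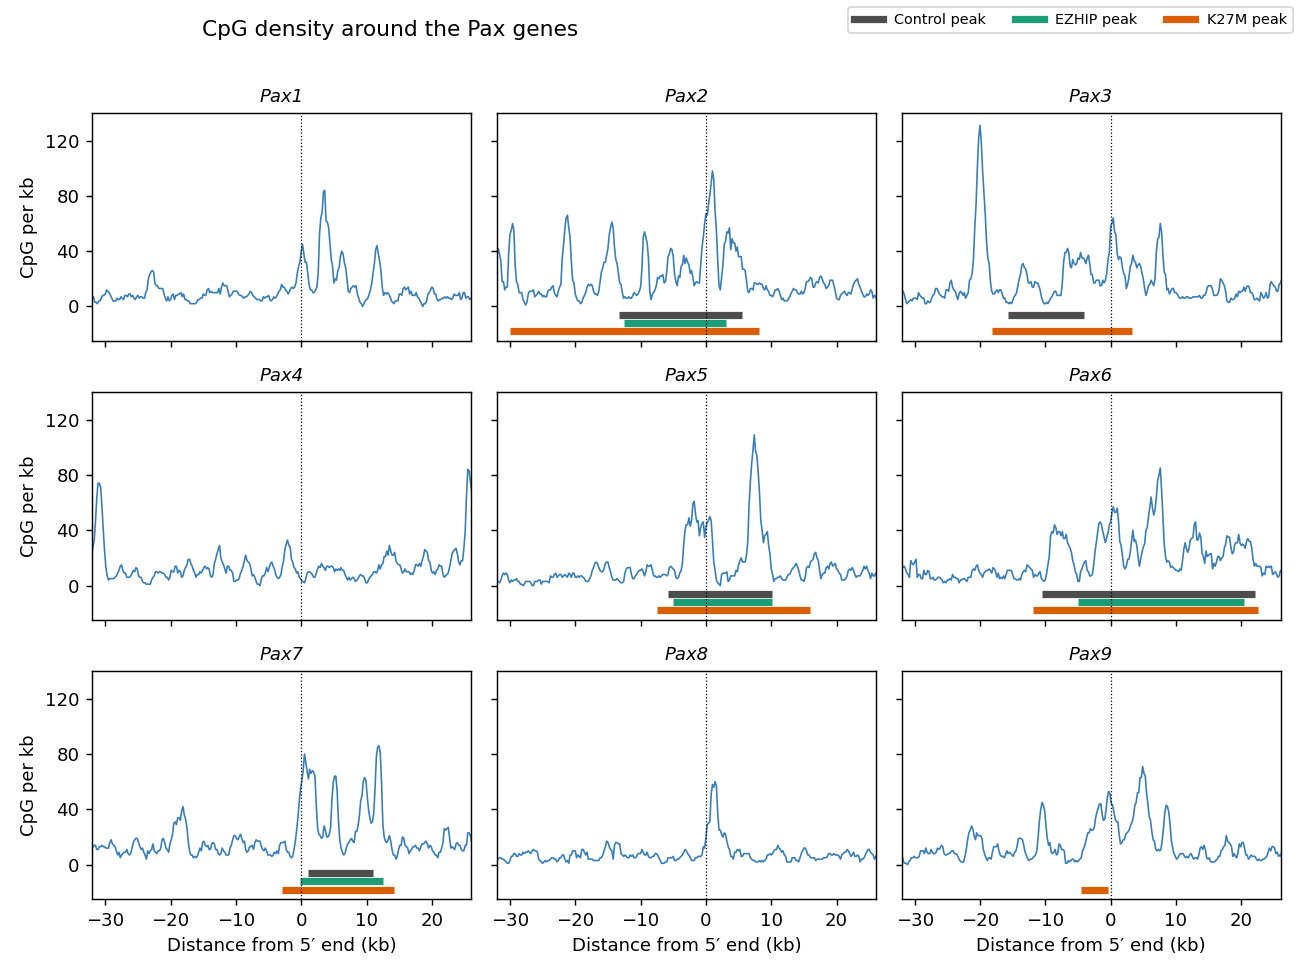
CpG dinucleotides per kb (sum over 5 neighbouring bins of 200 bp) against distance from the 5′ end in kb for the 9 Pax genes, with the called peaks of the Control, EZHIP and K27M lists as bars below. At *Pax5* and *Pax6* the Control peak spans the run of CpG-rich blocks around the 5′ end, whereas *Pax1*, *Pax8* and *Pax9* have CpG-rich blocks past the 5′ end without a peak over them, and *Pax4* has none near it.

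Genes that work with Pax proteins were listed by their known roles, with earlier results of these data known. Eya and Dach proteins form a regulatory network with Pax proteins and homeodomain partners in eye, ear, kidney and muscle. None of the 4 Eya and 2 Dach genes had a peak in any list. Since only 1.49% (Control), 1.44% (EZHIP) and 1.78% (K27M) of all protein-coding genes had one, this absence does not set them apart. *Six3* and *Six6*, homeobox regulators of the eye and forebrain, had one in every list, and most genes listed with them had none in any. At *Six3* the Control peak was 21.4 kb wide, the EZHIP peak 5.8 kb and the K27M peak 24 kb, and the 5′ end of the gene lay outside that of EZHIP only. Without the extension of 5 kb, *Six3* had no peak in EZHIP. At *Six6* the widths were 16.8, 11.4 and 13.2 kb in the same order. Of 18 known Pax targets, 2 had a peak, in every list, and the others had none in any, against the 1.49% (Control), 1.44% (EZHIP) and 1.78% (K27M) of all protein-coding genes given for the same distance. They were *Nkx3-2*, a sclerotome factor downstream of *Pax1* and *Pax9* (14.2, 14.0 and 27 kb), and *Neurog2*, a neurogenic factor downstream of *Pax6* (17.2, 18.8 and 20.2 kb). The 5′ end was inside the peak of every list at both.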

How the data were processed

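The authors' methods state that reads were aligned to mm9 and to a spike-in genome with bowtie1 (Bowtie 1.0.0 in the submitters' processing notes) and that broad CBX2 peaks were called with Mosaics-HMM. The stated maximum gap for these calls was 10000 bp, so a called peak may span stretches without signal. Whether an input library or scaling entered the calls is not given in the sources used here. The deposited lists hold the chromosome, start and end of each peak with no score, so no signal, fold or p-value was used. Starts and ends were read as whole 200 bp bins and are given 1-based. Genes were taken from GENCODE vM1 and sequence from NCBIM37, the assembly of mm9. The 5′ end was that of the gene record, and exons were numbered on the longest protein-coding transcript. All peaks fell within the chromosome lengths.

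Peaks were assigned by an overlap of at least 1 bp with the gene body extended by 5000 bp, and widths, edges and CpG counts were computed with Python 3.11.15, numpy 2.4.6 and pandas 2.3.3. Island windows of 500 bp moved in steps of 50 bp, and 32-mers were sampled every 100 bp and counted on both strands. The overlap step was tested on simulated data. With 1 library per group there was no test, and read depth is unknown. All 9 members were named with their values, as was each network gene with a peak. Counts over 1 of the network lists are not reported here. Other genes were named only where a start lay in a peak at a Pax gene or where they were the single protein-coding gene between a Pax gene and its nearest peak. The members and gene lists were chosen with earlier results of these data known. *Nkx2-4* and *Nkx2-1* were named after their values were seen.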

Additional observations from a re-analysis of the deposited data

How the results depend on the processing

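For 27 results, 72 values were recomputed under other settings, of which at least 10 could not differ, since no peak at a Pax gene had a neighbour within 10000 bp to be joined to (8 values) and the 255 widest EZHIP peaks are its whole list (2 values). Others were fixed by the peaks themselves. No Control or EZHIP peak at a Pax gene was narrower than 10.0 kb, so a minimum of 5000 bp could not change their counts. All Control peaks at Pax genes were among the 255 widest. EZHIP had a single peak per gene, so restricting it to peaks overlapping Control changed nothing. Of all 72 values, 70 stayed within 1.5 times the reported count or width, or within 0.1 on the log2 scale, 2 moved and 0 changed sign. That range lets a count of 5 become 4. When every protein-coding transcript start had to lie inside a peak, 2 Pax genes qualified in EZHIP instead of 4, while Control and K27M kept 3 and 5. When only the part of each peak inside the extended gene was measured, the median EZHIP/Control log2 width ratio became -0.05 instead of -0.17, since upstream parts beyond 5 kb are left out by construction. Without the extension of the gene body, 4 Pax genes had a peak in Control, 4 in EZHIP and 5 in K27M, so that *Pax3* left the Control count and *Pax9* the K27M count, and *Six3* lost its EZHIP peak. The *Pax9* peak also falls below a minimum width of 5000 bp. The comparison restricted to peaks overlapping the Control peak was added after the data were seen. No paired analysis was possible because every condition rests on a single library, which also leaves none to omit in turn. The unknown read depth limits every comparison of widths.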

Other observations

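The neighbours of *Pax1* and *Pax9* belong to the Nkx2 homeobox family, and these genes were named after their values were seen. The Control and EZHIP peaks nearest to *Pax1* measured 9.8 and 9.2 kb and contained the start of *Nkx2-4*, and the nearest K27M peak, of 7.2 kb (chromosome 2, 147010401 to 147017600), overlapped *Nkx2-2* without its start and contained the start of the noncoding transcript 6430503K07Rik. The Control peak nearest to *Pax9* measured 19.2 kb (chromosome 12, 57619801 to 57639000) and contained the start of *Nkx2-1*, a regulator of lung, thyroid and forebrain, while the EZHIP peak there measured 7.6 kb (57625801 to 57633400) and did not. CBX2 peaks thus lay at Nkx2 genes on the same chromosome segments on which *Pax1* had none and *Pax9* had 1 in K27M alone.

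The densest CpG stretch near *Pax3* lay 20 kb upstream of the 5′ end, with 131 CpG per kb, the highest density found near any Pax gene over the range searched. It was outside the peaks of every list, and the K27M peak ended 18.1 kb upstream, short of it.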
